A study of Homo sapiens with 10 samples.

Results

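The transcripts of 6 E2F transcription factors (E2F1, E2F2, E2F3, E2F4, E2F7 and E2F8), of their dimerisation partner TFDP1 and of the 3 pocket proteins RB1, RBL1 and RBL2 were followed in fibroblasts over a time course of p53 activation. The 10 genes were taken by gene symbol. All 10 were among the 13279 transcripts of the RNA-Seq table, and 8 were among the 11337 transcripts of the Ribo-Seq table. E2F2 and E2F8 are not listed in the Ribo-Seq table used here. The cells were BJ, human primary fibroblasts that had been made immortal by expressing hTERT, the catalytic subunit of telomerase, and were grown in medium with fetal calf serum. An untreated control was compared with cells given Nutlin-3a for 2, 4, 6 or 19 h. Nutlin-3a keeps MDM2, a ubiquitin ligase that marks p53 for destruction, from binding it, and p53 then accumulates. The 5 conditions had 1 RNA-Seq library each, made from poly(A) RNA, and 1 Ribo-Seq library each, which holds the mRNA fragments that ribosomes protect. With 1 library per condition no difference has a replicate check and no p-value was computed, and all groups are the same immortal line. Per the methods of the study, the 6 and 19 h libraries were set against a control of their own sequencing run. The run of the 2 and 4 h libraries is not given in the sources used here, so at these times run and treatment cannot be told apart.

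E2F proteins bind DNA as dimers with a DP protein such as TFDP1 and control genes that cells need to enter and complete S phase. E2F1, E2F2 and E2F3 are known as activators. E2F4 acts mainly as a repressor in resting cells, and E2F7 and E2F8 repress their targets without a DP partner or a pocket protein. The pocket proteins RB1 (pRb), RBL1 (p107) and RBL2 (p130) hold E2F dimers on their targets and silence them until cyclin-dependent kinases phosphorylate them. p53 is known to act on this circuit through CDKN1A (p21), an inhibitor of those kinases, and several E2F genes are themselves E2F targets. RBL2 is the pocket protein typical of resting cells, whereas RBL1 is typical of cycling cells.

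Levels are given in FPKM, the reads of a transcript scaled by its length and by the reads of the library. The FPKM values were scaled to 23845556 to 27554279 reads in RNA-Seq and to 7744900 reads (19 h) to 14460724 reads (4 h) in Ribo-Seq. These totals are estimates worked out from the steps between neighbouring FPKM values, and they are not the reads sequenced. The study reports more sequenced reads, with most mapped Ribo-Seq reads from rRNA. Intervals below are exact 95% intervals of the reads behind a value and cover counting error only. CDKN1A rose from 68.6 FPKM of RNA in the control to 1316 FPKM at 19 h and MDM2, the negative regulator of p53 that is itself a p53 target, from 14.9 to 259 FPKM. All 12 fibroblast markers were at or above 5 FPKM in every RNA-Seq library, and their summed level was 10794 to 14609 FPKM. Of 7 epithelial markers 4 were listed and summed to 243 to 327 FPKM, and 2 were at or above 5 FPKM in every library. These were KRT18, nearly all of the sum, and KRT8 at 10.6 to 14.2 FPKM. CDH1 stayed at or below 0.025 FPKM and KRT19 at or below 0.08 FPKM. Of 4 immune markers 3 were listed and summed to 61.7 to 87.1 FPKM, and 1 was at or above 5 FPKM in every library. This was CD68, nearly all of the sum, with PTPRC at or below 0.246 FPKM and CD14 at or below 0.509 FPKM. VWF, the listed endothelial marker of 4, stayed at or below 0.156 FPKM. For the 7015 genes that reached 5 FPKM in some RNA-Seq and some Ribo-Seq library, here called tested, the median log2 change from the control lay between -0.07 and 0.00 for RNA. For ribosome density, the Ribo-Seq level, it was 0.10 at 4 h and -0.19 at 19 h.

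The start regions of 5 members hold the E2F word that the family is known to bind, and they are shown here. The choice to show them was made with the RNA results known. Of these 5 members 4 lost RNA in the results below, and E2F3 was not called lower. A link between word and RNA change was not tested. RefSeq (GRCh38.p14) gave a start region, from 250 bases before to 50 bases after a start site, for 9 of the 10 members, and E2F8 had no entry. The words searched on both strands were TTTCCCGC, TTTCGCGC, TTTGCCGC and TTTGGCGC, and at least 1 of them lies in 3.31% of all 35116 start regions. Each line gives the bases from 120 before to 50 after the start site, 5′ to 3′ on the strand of the gene, with the words or their reverse complements in capitals.
E2F1, chr20:33686336-33686505, minus strand: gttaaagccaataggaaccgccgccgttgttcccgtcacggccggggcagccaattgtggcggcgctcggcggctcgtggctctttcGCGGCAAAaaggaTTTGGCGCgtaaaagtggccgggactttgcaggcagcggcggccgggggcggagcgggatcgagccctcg
E2F2, chr1:23531184-23531353, minus strand: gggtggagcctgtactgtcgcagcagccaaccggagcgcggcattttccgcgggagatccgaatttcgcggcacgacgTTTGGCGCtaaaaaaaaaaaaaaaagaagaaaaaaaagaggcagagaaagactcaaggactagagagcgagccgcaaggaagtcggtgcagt
E2F3, upstream start, chr6:20401759-20401928, plus strand: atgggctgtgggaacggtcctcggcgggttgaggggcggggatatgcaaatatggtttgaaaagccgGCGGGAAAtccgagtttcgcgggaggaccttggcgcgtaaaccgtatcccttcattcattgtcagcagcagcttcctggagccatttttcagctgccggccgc
RBL1, chr20:37095948-37096117, minus strand: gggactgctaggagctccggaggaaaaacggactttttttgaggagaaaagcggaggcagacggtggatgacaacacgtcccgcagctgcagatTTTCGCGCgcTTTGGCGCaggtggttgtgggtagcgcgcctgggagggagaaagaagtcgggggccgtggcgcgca
TFDP1, chr13:113584633-113584802, plus strand: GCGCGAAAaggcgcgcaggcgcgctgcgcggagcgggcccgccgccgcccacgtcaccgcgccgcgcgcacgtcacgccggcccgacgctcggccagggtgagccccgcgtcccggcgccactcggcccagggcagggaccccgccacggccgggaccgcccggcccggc
E2F7, chr12:77065520-77065689, minus strand: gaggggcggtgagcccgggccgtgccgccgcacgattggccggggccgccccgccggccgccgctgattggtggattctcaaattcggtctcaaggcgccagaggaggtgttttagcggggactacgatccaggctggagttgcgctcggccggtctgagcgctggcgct

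E2F1 holds a word 33 bases before the start site on the opposite strand and another 20 bases before it on the strand of the gene. The words of RBL1 begin 26 and 16 bases before the start site, and the single word of E2F2 begins 42 bases before it. TFDP1 has its word 120 bases upstream, and E2F3 has 1 word 53 bases before the upstream of its 2 start sites. No word lies in the whole start region of E2F4 or E2F7, of either start of RBL2 or of the downstream start of E2F3. Of these regions E2F7 alone is printed, as an example. The RefSeq entry for RB1 is an internal start 172699 bases into the gene and was left aside. The cell cycle homology region (TTTGAA or TTCGAA), the element that the MuvB complex binds, was found in the upstream start regions of E2F3 and RBL2 and in 16.4% of all start regions. A match is a description of the letters, and binding was not measured here.

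After Nutlin-3a the RNA of E2F1, E2F2, E2F8, RBL1 and TFDP1 fell, whereas E2F4, E2F3, RB1 and RBL2 stayed within 1.5-fold of the control at every time and E2F7 had a single high value at 4 h. A change was called when it lay outside a cut-off set by the mean and SD of the changes of genes of like level, after values below 1 FPKM had been set to 1. Of the 10 members 5 were tested in both assays, namely E2F1, E2F4, E2F7, RB1 and TFDP1, and E2F7 passed in Ribo-Seq through its 4 h value alone. None of the 5 was called in RNA at 2 h, when 3.55% of tested genes were higher and 0.542% lower. At 4 h E2F7 was called higher and E2F1 lower, against 4.02% of tested genes higher and 2.18% lower. At 6 h E2F1 and TFDP1 were called lower, and at 19 h the same genes were. The shares of tested genes called lower were 4.35% at 6 h and 4.31% at 19 h, and those called higher were 1.84% and 1.95%.

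All 10 members could be called over the 10749 genes that reached 1 FPKM in any RNA-Seq library, with the Ribo-Seq table left aside, a filter added after the data were seen. There E2F3 was called higher at 2 h, when 3.4% of genes were higher and 1.07% lower. At 4 h E2F7 was called higher and E2F1, E2F2, E2F8 and RBL1 lower, against 3.68% and 2.34% of genes. At 6 h and at 19 h 5 of 10 members were called lower, E2F1, E2F2, E2F8, RBL1 and TFDP1, and none higher. The share of genes called lower was 4.2% at 6 h and 4.23% at 19 h, and the share called higher was 1.86% and 1.8%. In bulk RNA fewer cells that express a gene and less RNA of it per cell cannot be told apart.

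**Figure D1:**
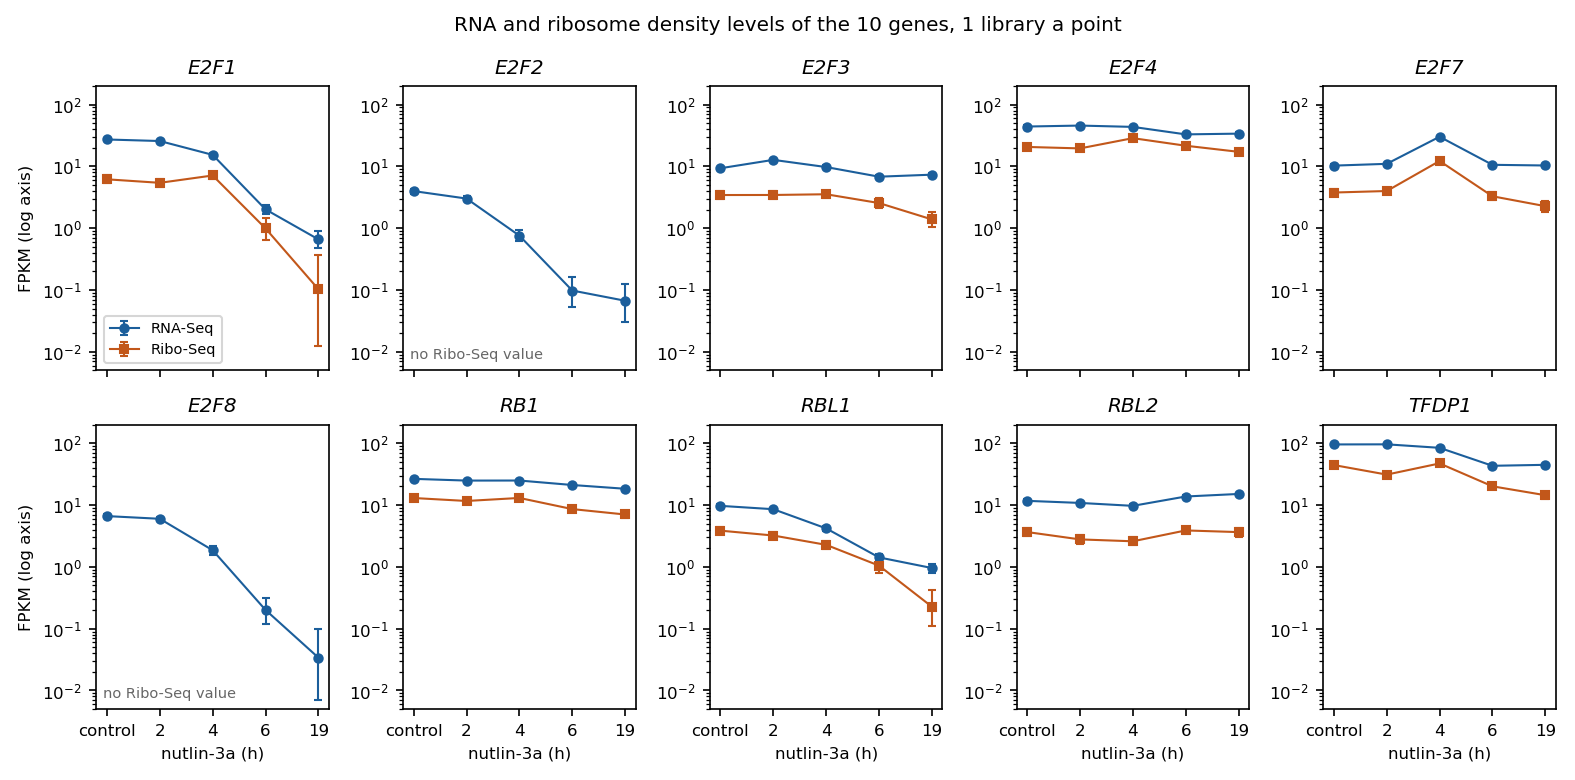
RNA-Seq and Ribo-Seq levels in FPKM on a log axis for each of the 10 genes in the control and after 2, 4, 6 and 19 h of Nutlin-3a, with 1 library per point and 95% counting intervals as bars. E2F1, E2F2, E2F8 and RBL1 fall from 4 h on to below 1 FPKM of RNA at 19 h, and E2F7 peaks at 30.2 FPKM at 4 h.

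Among the activators, E2F1, the founding member of the family, had 27.3 FPKM of RNA in the control and 25.7 at 2 h, then 15.4 at 4 h, 2.02 at 6 h and finally 0.660 at 19 h. The interval of each library from 4 h on lay below those of all earlier libraries. The ratio to the control was 0.564 (95% counting interval 0.520 to 0.611) at 4 h and 0.0242 (0.0174 to 0.0327) at 19 h, which rests on 43 reads against 1627. The steepest step was the 7.63-fold drop between 4 and 6 h. A fall of 1.77-fold at 4 h did not reach the 2-fold rule that was tried as an alternative.

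E2F2, an activator close to E2F1, was the least abundant of the 6 E2F members in the control. Its RNA stood at 3.98, 3.02, 0.757, 0.098 and 0.067 FPKM in the control and at 2, 4, 6 and 19 h. It was already below the control at 2 h, with a ratio of 0.757 (0.664 to 0.864), which is within the sliding cut-off. At 4 h it had lost 5.26-fold, more than E2F1 at that time, and at 6 h 40.7-fold. The 6 h and 19 h values, from 14 and 9 reads, have overlapping intervals.

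E2F3, the third activator, did not follow the other two. Its RNA was 9.34 FPKM in the control, 12.8 at 2 h and 9.76 at 4 h, and it stood at 6.82 at 6 h and 7.35 at 19 h. The 2 h library was the highest, 1.37 times the control (1.26 to 1.48), and the 6 h library the lowest, at 0.730 times the control (0.667 to 0.799). The table has 1 value for the gene, so its start sites cannot be told apart.

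Of the repressors, E2F4 had the highest E2F level in every library but was not called at any time. Its RNA was 44.2, 45.8 and 43.6 FPKM in the control, at 2 h and at 4 h, and 33.0 and 33.9 FPKM at 6 and 19 h. The later pair lay below the earlier 3 libraries, with a ratio of 0.767 (0.721 to 0.816) at 19 h.

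E2F7, an atypical repressor and a known p53 target, had a pulse. Its RNA was 10.3 FPKM in the control, 11.0 at 2 h and 30.2 at 4 h, and it was back at 10.6 at 6 h and 10.3 at 19 h. The 4 h library stood at 2.93 times the control (2.76 to 3.12) on 4235 reads, and the other 4 libraries lay within 10.3 to 11.0 FPKM. At 19 h the ratio to the control was 1.01 (0.934 to 1.08). The Ribo-Seq levels also peaked at 4 h, with 3.78, 4.00, 12.2, 3.29 and 2.27 FPKM. Whether both assays of a time came from the same culture is not given in the sources used here, so this peak is not a replicate. Its density at 4 h was 3.24 times the control (2.82 to 3.73), and at 19 h it was 0.602 times the control (0.473 to 0.760), below the RNA.

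E2F8, the other atypical repressor, moved apart from E2F7. Its RNA was 6.64, 6.00, 1.86, 0.201 and 0.034 FPKM in the control and at 2, 4, 6 and 19 h. The ratio to the control was 0.280 (0.233 to 0.336) at 4 h, when E2F7 was at its highest, and 0.0303 (0.0181 to 0.0478) at 6 h. The 19 h library held 3 reads against 543 in the control, a ratio of 0.00506 (0.00104 to 0.0149).

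TFDP1, the DP subunit shared by the typical E2F proteins, was the most abundant member in RNA in every library. It had 95.8 FPKM in the control, 96.2 at 2 h and 84.5 at 4 h, and then 43.2 at 6 h and 44.8 at 19 h. The first 3 libraries and the last 2 did not overlap, and the ratio at 19 h was 0.468 (0.447 to 0.490). No further loss was seen between 6 and 19 h, with a ratio of 1.04 (0.983 to 1.09). The log2 change of -1.10 at 19 h lay just past its cut-off.

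The pocket proteins parted. RB1, the retinoblastoma protein, had 26.6, 24.9, 24.97, 21.1 and 18.4 FPKM of RNA in the control and at 2, 4, 6 and 19 h. Its 19 h library was the lowest, at 0.691 times the control (0.655 to 0.730), and none of its changes was called.

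RBL1, typical of cycling cells, was lower in each library than in the library before, with 9.72, 8.58, 4.20, 1.42 and 0.959 FPKM. It stood at 0.432 times the control (0.391 to 0.477) at 4 h, at 0.147 times (0.127 to 0.169) at 6 h and then at 0.0987 times (0.0824 to 0.117). RBL2 had 11.7, 10.8, 9.72, 13.8 and 15.1 FPKM, lowest at 4 h and highest at 19 h. Its ratios of 0.830 (0.767 to 0.898) at 4 h and 1.29 (1.21 to 1.39) at 19 h both excluded 1 by counting error, but neither was called. The RNA of RBL2 was 1.21 times that of RBL1 in the control and 15.8 times at 19 h. In ribosome density this ratio went from 0.949 to 16.1, the last value resting on 10 reads of RBL1.

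**Figure D2:**
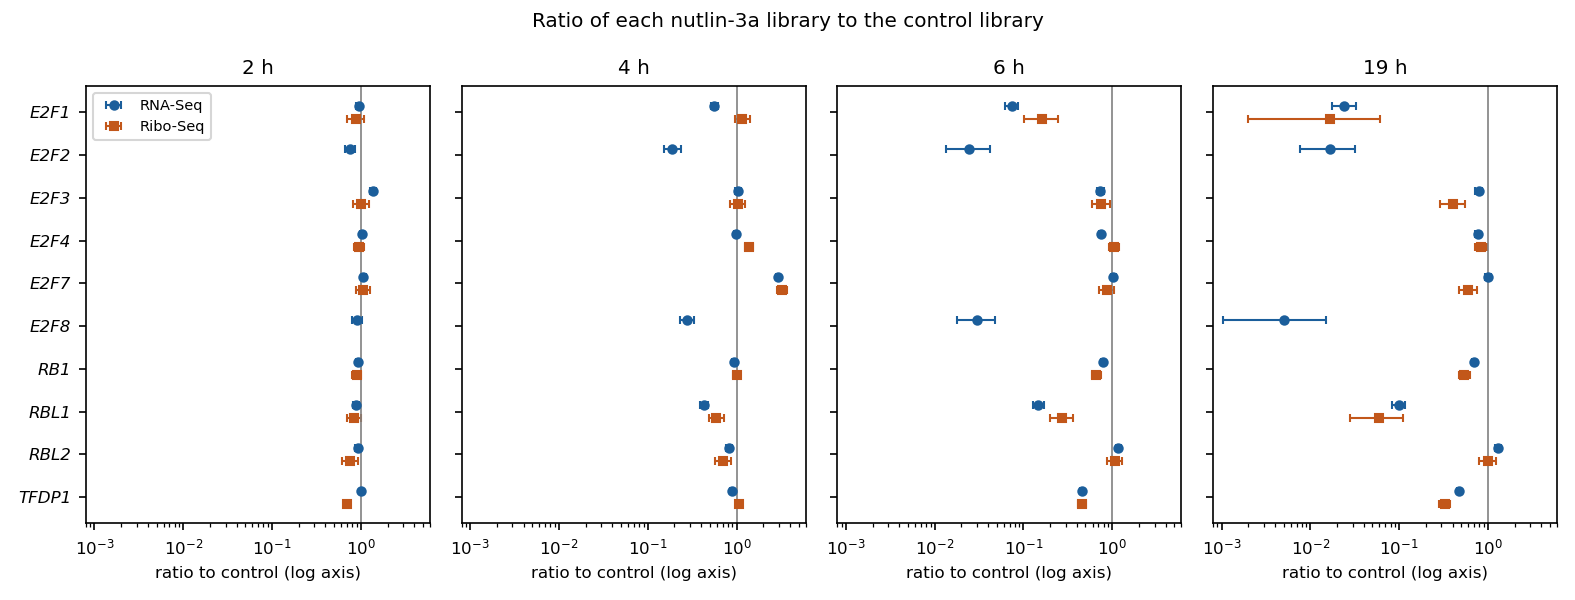
Ratio of each Nutlin-3a library to the control of its own assay, on a log axis, for RNA-Seq (circles) and Ribo-Seq (squares) with 95% counting intervals and a line at 1. At 4 h E2F7 stands at 2.93 in RNA and 3.24 in ribosome density while E2F2, E2F8 and RBL1 are below 0.45 in RNA, and at 19 h E2F1, E2F2, E2F8 and RBL1 are below 0.1 in RNA.

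The order of the RNA levels in the control was TFDP1, E2F4, E2F1, RB1, RBL2, E2F7, RBL1, E2F3, E2F8 and E2F2. Neighbours whose intervals overlapped were E2F1 with RB1, E2F7 with RBL1 and RBL1 with E2F3. At 19 h the order was TFDP1, E2F4, RB1, RBL2, E2F7, E2F3, RBL1, E2F1, E2F2 and E2F8. RBL1 with E2F1 and E2F2 with E2F8 then overlapped. E2F1 thus moved from the third place to the eighth, and RB1, RBL2, E2F7 and E2F3 each moved up without a called change at that time.

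The summed RNA of the 6 E2F genes was 101.7 FPKM in the control, 104.3 at 2 h and 101.5 at 4 h, and 52.7 and 52.3 at 6 and 19 h. The sum at 4 h was close to that of the control while its makeup differed. E2F1 held 26.8% of it in the control, 15.1% at 4 h and 1.26% at 19 h. E2F7 held 10.1% in the control and 29.7% at 4 h. E2F4 held 43.4% in the control and 64.7% at 19 h, when E2F4, E2F7 and E2F3 (14.0%) made up nearly all of the sum. In the pocket protein family the share of RB1 was 55.4% in the control and 53.3% at 19 h, that of RBL1 went from 20.2% to 2.78% and that of RBL2 from 24.4% to 43.9%. Shares of levels are not shares of protein.

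**Figure D3:**
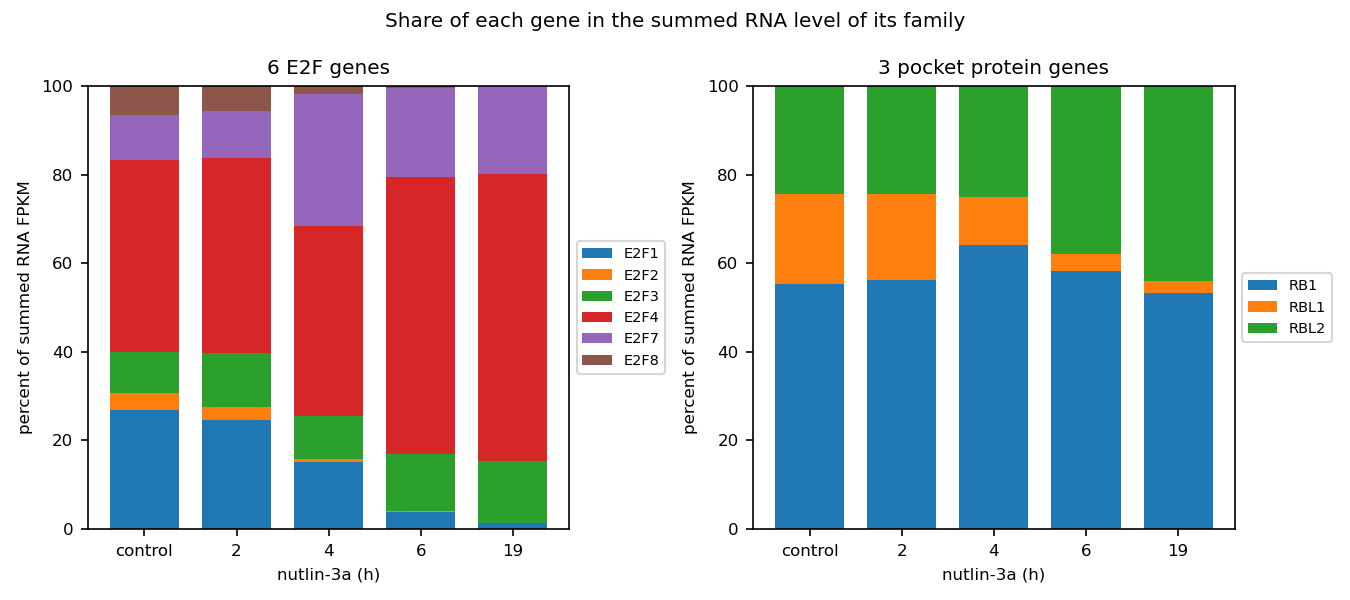
Percent of the summed RNA-Seq FPKM of the 6 E2F genes (left) and the 3 pocket protein genes (right) that each gene held in each library, with 1 library per bar. E2F1 shrinks from 26.8% to 1.26% and RBL1 from 20.2% to 2.78%, while E2F4 grows from 43.4% to 64.7% and RBL2 from 24.4% to 43.9%.

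Ribosome density was measured for 8 members. TFDP1 had 44.4, 31.1, 47.2, 20.1 and 14.5 FPKM of density in the control and at 2, 4, 6 and 19 h, so its 2 h library was low while its RNA was level. RB1 had 13.0, 11.7, 13.0, 8.62 and 7.04 FPKM. RBL1 had 3.86, 3.22, 2.28, 1.05 and 0.227 FPKM and was too low to be tested, and its density at 6 h was 0.272 times the control (0.202 to 0.361), above the ratio of its RNA.

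E2F4 kept 20.6, 19.6, 28.6, 21.6 and 17.2 FPKM of density, highest at 4 h. E2F3 had 3.44, 3.45, 3.54, 2.55 and 1.39 FPKM, and RBL2 had 3.66, 2.78, 2.60, 3.89 and 3.65 FPKM. E2F1 departed from its RNA at 4 h. Its density was 6.18 FPKM in the control, 5.42 at 2 h and 7.13 at 4 h, and then 0.992 at 6 h and 0.103 at 19 h, so at 4 h it stood at 1.15 times the control (0.9502 to 1.40) while its RNA stood at 0.564 times.

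Of the 5 tested members none was called in density at 2 h, when 5.96% of tested genes were called in either direction. At 4 h E2F7 was called higher (6.13% of tested genes called in either direction), at 6 h E2F1 lower (7.18%) and at 19 h TFDP1 lower (6.3%). E2F7 was tested only through this same 4 h density value, so its call is not independent of the filter. E2F1 lay just past the cut-off of -2.52 at 6 h with a log2 change of -2.63, and TFDP1 just past that of -1.62 at 19 h with -1.62, so these calls hang on a small margin. With a pseudocount of 1 FPKM in place of the floor, or with the 2 h library as baseline, neither was called. The change of E2F1 is set by the floor at 6 h and at 19 h alike. At 19 h its cut-off was -3.38, so with the floor it could not be called there. Without a floor its density change was -2.64 at 6 h and -5.91 at 19 h, and E2F1 was called lower at 19 h but not at 6 h.

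Translational efficiency (TE) compares the ribosomes on a transcript with its amount, as the log2 ratio of the Ribo-Seq to the RNA-Seq level at 1 time. In the control all 8 members were below the tested genes' median of -0.27. E2F1 was lowest at -2.14 ± 0.11 (counting SE), with 1.47% of tested genes lower, and RBL2 was next at -1.68 ± 0.11, with 4.65% lower. RB1 was the highest member at -1.03 ± 0.06, with 18.2% lower. The FPKM of both assays used the same whole transcript length for each of the 8 genes, so these TE values are per transcript and not per coding sequence, and transcripts with long untranslated parts are placed lower by this scale.

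TE calls among the 5 tested members were few. At 2 h TFDP1 was called lower, with a log2 change of -0.52 ± 0.07, when 6.87% of tested genes were called. At 4 h E2F1 was called higher, with a change of 1.03 ± 0.15 against 0.18 for the median tested gene and with 7.71% called. None was called at 6 h (6.94% of tested genes), when E2F1 was at 1.12 ± 0.33 without a floor. At 19 h E2F1 was called higher (7.54%) with 2.14, but this value is set by the floor, because its Ribo-Seq value came from 2 reads. Without a floor the change was -0.54 ± 1.05.

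Some TE differences carried no call. RBL1, which was not tested, was 0.45 ± 0.16 above its control at 4 h and 0.89 ± 0.23 at 6 h, times at which its RNA was falling. E2F3, also not tested, had a change of -0.96 ± 0.24 at 19 h and E2F7 had one of -0.74 ± 0.18, against a median of -0.07 over tested genes. E2F4 had a change of 0.49 ± 0.09 at 4 h and 0.49 ± 0.10 at 6 h, within the cut-offs.

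**Figure D4:**
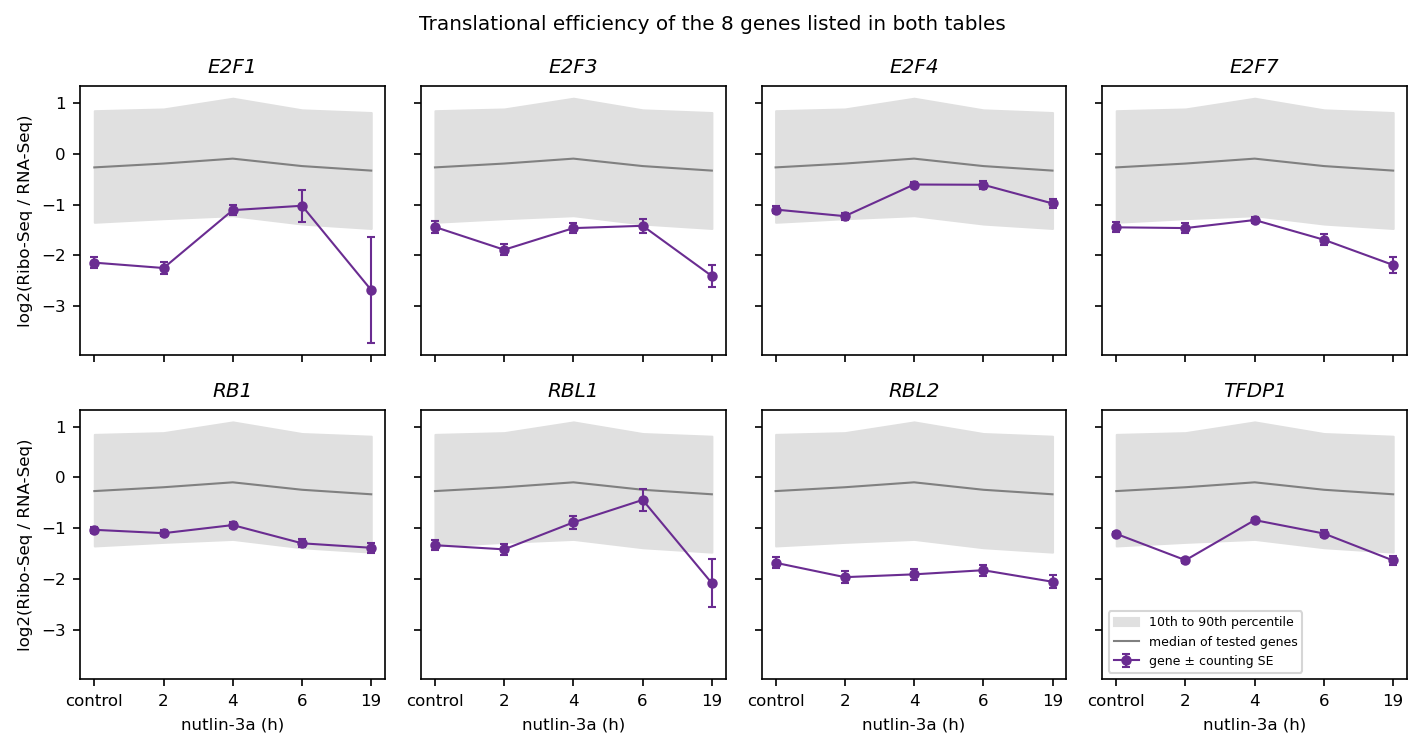
Translational efficiency, the log2 ratio of Ribo-Seq to RNA-Seq FPKM without a floor, of the 8 genes in the control and after 2, 4, 6 and 19 h, with counting SEs as bars, the median of the 7015 tested genes as a line and their 10th to 90th percentile as a band. E2F1 goes from -2.14 in the control to -1.11 at 4 h, and E2F3, E2F7 and RBL2 lie below the band at every time.

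The remaining members of the families had at most 8.65 FPKM of RNA in any library. E2F6, a repressor that needs no pocket protein, was the tested gene of 3, and its RNA went from 7.42 FPKM in the control to 5.06 FPKM at 19 h without a call. Its ribosome density went from 4.17 to 2.01 FPKM, a log2 change of -1.06 that was not called either. E2F5, which binds RBL2, stayed between 0.727 and 1.15 FPKM. TFDP2, the other DP subunit, had 5.29 FPKM in the control, 3.81 at 4 h and 5.49 at 19 h, so it did not share the loss of TFDP1 in these libraries.

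Of the cyclins and kinases that phosphorylate pocket proteins 7 of 11 were tested. In RNA at 19 h 3 were called lower, against 4.31% of all tested genes, and none higher. CDK1, the mitotic kinase, changed by -5.63 on the log2 scale, CCNA2, the cyclin of S phase and G2, by -5.02 and CDK2, the kinase of cyclins E and A, by -3.10. CCND1, CCND3, CDK4 and CDK6, which act on RB1 in G1, were not called at 19 h. CCND1 had 388.6 FPKM of RNA in the control and 448.5 at 19 h, and CDK6 had 16.9 and 17.7. CDK4 went from 104.9 to 58.9 FPKM, a log2 change of -0.83, and CCND3 from 40.2 to 31.5 FPKM. The ribosome density of CDK4 went from 111.9 to 53.4 FPKM. Below the filter, and picked after their values were seen, CCNE2 went from 4.74 to 0.035 FPKM and CDC25A, the phosphatase that activates CDK2, from 7.63 to 0.426 FPKM.

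Of 7 CDK inhibitors 4 were tested, with 1 higher and 2 lower at 19 h, against 1.95% and 4.31% of all tested genes. CDKN1A changed by 4.26, whereas CDKN2D (p19) and CDKN2C (p18), inhibitors of CDK4 and CDK6, changed by -2.71 and -2.32. The MuvB core joins RBL2 or RBL1 and E2F4 in the DREAM repressor complex. This core and its MYB and FOXM1 partners had 5 of 8 tested, with 3 lower at 6 h and 2 at 19 h. The shares of all tested genes called lower were 4.35% and 4.31% at these times. MYBL2 and FOXM1, the partners that activate late cell-cycle genes, changed by -5.55 and -3.02. The core subunits RBBP4 (-0.66) and LIN37 (0.04) were not called at 19 h. Below the filter, the core subunits LIN54 and LIN52 went from 9.38 to 3.42 FPKM and from 5.32 to 2.66 FPKM between the control and 19 h. Among co-repressors that pocket proteins recruit, 2 of 12 tested genes were lower at 19 h against 4.31% of all tested genes, DNMT1 (-2.10), the maintenance DNA methyltransferase, and RBBP7 (-1.37), a histone chaperone. SUV39H1, a histone H3 lysine methyltransferase, and SAP30, a subunit of the SIN3 complex, had values of -3.07 and -1.57 without a call.

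Target genes were lower as groups. For comparison, 2.18% of all tested genes were called lower in RNA at 4 h, 4.35% at 6 h and 4.31% at 19 h. Of 38 G1/S genes known to be under E2F 36 were tested, and 24 were lower in RNA at 4 h, 32 at 6 h and 27 at 19 h. None was higher at any time, and none was called at 2 h. Their median log2 change was -0.84 at 4 h and -3.37 at 19 h, against -0.07 over all tested genes at both times. RRM2, a subunit of ribonucleotide reductase, changed by -5.94 at 19 h, CDC6, which loads the replicative helicase, by -4.74 and MCM2, a subunit of that helicase, by -4.46. Of 25 G2/M genes known to be under MuvB 21 were tested, with 5 lower at 4 h and 21 lower at 6 h and at 19 h. Their median was -0.44 at 4 h and -4.93 at 19 h. CDC20, an activator of the anaphase-promoting complex, changed by -5.74, CDCA8, a subunit of the chromosomal passenger complex, by -5.60 and KIF20A, a kinesin of cytokinesis, by -5.58. No test compared the lists with each other.

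**Figure D5:**
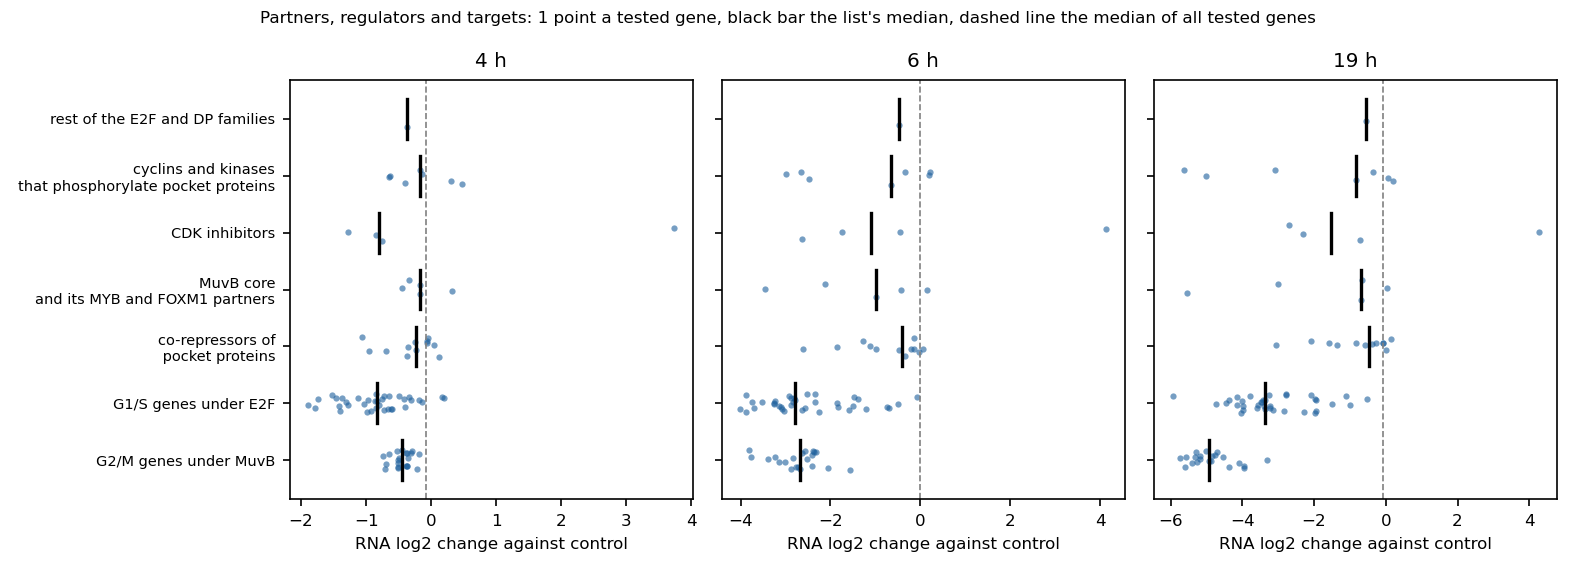
RNA log2 change against the control at 4, 6 and 19 h for each tested gene of the lists of partners, regulators and targets, with 1 point per gene, the list's median as a black bar and the median of all tested genes as a dashed line. At 4 h the G1/S genes have a median of -0.84 and the G2/M genes of -0.44, and at 19 h of -3.37 and -4.93.

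The genes most like a member over the 10 libraries were found by the root mean square difference of log2 levels, each gene centred on its own mean in an assay. For E2F7 these were ESM1 (0.16) and STC1 (0.23). ESM1, a secreted proteoglycan, had 16.6, 16.6, 53.8, 16.8 and 12.3 FPKM of RNA in the control and at 2, 4, 6 and 19 h, and STC1, a secreted glycoprotein, had 21.7, 31.4, 57.4, 21.5 and 23.2 FPKM. Both were picked for their likeness to E2F7 in these same libraries, so their peak at 4 h follows from that choice.

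For E2F1 the nearest were C9orf140 (0.30) and FANCI (0.33), the latter a Fanconi anaemia protein of DNA crosslink repair, whose RNA went from 26.5 to 1.27 FPKM. TFDP1 was nearest to WDR5 (0.10), a subunit of histone methyltransferase complexes, and C16orf61 (0.13). The least variable members had the closest neighbours, E2F4 with CIZ1 (0.05) and IL15RA (0.05) and RB1 with CNN3 (0.03) and EED (0.05).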

How the data were processed

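RNA-Seq and Ribo-Seq were measured in 10 libraries, 1 per assay and condition, with the group and time of each read from its labels. The authors deposited FPKM values with 3 decimals, in 1 table per assay. Per the methods of the study and the submitters' processing notes, the authors aligned reads with Bowtie to 1 transcript per gene and kept unique hits (build hg19), so reads shared by paralogs were lost. The methods describe density from coding reads, whereas the column names say total and both tables used the same length for the 8 members, so which reads the Ribo-Seq values hold was not settled. Table names gave the assay. The study describes batches of sequencing runs and controls of the same run, and the labels name no run. All value columns were mapped (0 left over).

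Library totals, transcript lengths and reads were recovered from the FPKM spacing and gave exact Poisson intervals of levels and exact conditional binomial intervals of ratios. The recovery and the RNA calls were also run on simulated data that held counting error and set RNA changes only. Density and TE calls were not simulated, and other variation between libraries was not covered. Values were floored at 1 FPKM and set against the control library. Tested genes reached 5 FPKM in some RNA-Seq and some Ribo-Seq library, and a call lay over 1.75 local SDs from the local mean over 501 genes. Alternatives were a pseudocount, no filter, median centring, a 2-fold rule and the 2 h library as baseline, and, added later, no floor and the RNA-Seq table alone. The members and the 8 lists were chosen with earlier results of these data known. Named genes are all members, the 3 called genes of each list with the largest RNA change at 19 h, E2F5, E2F6, TFDP2, CDKN1A and MDM2, and the 2 genes most like each tested member. The other list genes named (CCND1, CCND3, CDK4, CDK6, CCNE2, CDC25A, RBBP4, LIN37, LIN52, LIN54, SUV39H1 and SAP30) were picked after their values were seen. Python 3.11.15, numpy 2.4.6, pandas 2.3.3, scipy 1.17.1 and matplotlib 3.10.9 were used.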

Additional observations from a re-analysis of the deposited data

Results flagged for a closer look

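Members stood on both sides of the control at different times, with counting intervals of the ratio that excluded 1 on each side. This marks a difference between times of 1 library each, which was not tested. E2F3 RNA had a log2 change of 0.45 at 2 h and of -0.45 at 6 h. The ribosome density of E2F4 was at 0.47 at 4 h and at -0.26 at 19 h, where the median tested gene was at 0.10 and -0.19. E2F7 density was at 1.7 at 4 h and at -0.73 at 19 h, and RBL2 RNA was at -0.27 at 4 h and at 0.37 at 19 h.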

How the results depend on the processing

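The direction of each called member held under all alternatives but 1, and the RNA calls of E2F7 at 4 h and of E2F1 and TFDP1 at 6 and 19 h held under every alternative run. Without a floor the TE change of E2F1 at 19 h was -0.54 instead of 2.14. Counts of members called moved as follows, and the cause was not tested where none is named. In RNA, calls higher at 2 h went from 0 to 1 (E2F3) without the filter and over the RNA-Seq table alone, where low members could enter. Calls lower at 4 h went from 1 to 2 without the filter, 0 by the 2-fold rule, 4 over the RNA-Seq table alone and 3 there by the 2-fold rule. At 6 h and at 19 h calls lower went from 2 to 3 (RBL1 added) without the filter and to 5 over the RNA-Seq table alone, by either rule. In density, calls lower at 6 h went from 1 to 0 with the pseudocount, the 2 h baseline or no floor, and to 2 without the filter or by the 2-fold rule. At 19 h they went from 1 to 0 with the pseudocount or the 2 h baseline and to 2 by the 2-fold rule or without a floor. In TE, calls lower at 2 h went from 1 to 0 by the 2-fold rule. TE calls higher at 6 h went from 0 to 1 (E2F1) with the pseudocount, without the filter, by the 2-fold rule and with the 2 h baseline. At 19 h they went from 1 to 2 without the filter and to 0 without a floor. Without the filter the density call at 19 h was E2F1 in place of TFDP1. No paired analysis was possible because each group holds 1 library. Depth limits several values at 19 h, among them E2F1 and RBL1 density on 2 and 10 reads and E2F8 and E2F2 RNA on 3 and 9 reads.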
